A study of Mus musculus with 42 samples.

Results

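Splicing regulators of the Rbfox, CELF, MBNL, PTB and QK families were followed through the libraries of a mouse carotid artery study in which flow, blood cells and the splicing factor Rbfox2 were altered. They are Rbfox2, the CELF proteins Celf1 and Celf2, the muscleblind proteins Mbnl1, Mbnl2 and Mbnl3, the polypyrimidine tract binding proteins Ptbp1, Ptbp2 and Ptbp3, and Qk. These 10 genes were picked by name from the 21674 genes of the expression table. Ptbp3 stands in the table under its older symbol Rod1, a synonym that the RefSeq gene table lists for it. All 10 genes had reads in every group of libraries, although Mbnl3 had a count of 0 in single libraries.

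These proteins bind pre-mRNA near alternative exons and change whether an exon enters the mature transcript. Rbfox proteins recognize UGCAUG, and an exon tends to be included when the site lies downstream and skipped when it lies upstream. CELF and muscleblind proteins often act on the same exons in opposite directions, as in heart and skeletal muscle development. Polypyrimidine tract binding proteins mostly repress exons that lie close to CU-rich stretches, and Ptbp1 also represses an exon of Ptbp2, which lowers Ptbp2 in cells that hold much Ptbp1. Qk, a KH domain protein that binds ACUAAC elements, is known for its roles in myelination, vessel formation and smooth muscle.

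Carotid intima was collected by flushing lysis buffer through the vessel, so that the RNA comes mostly from endothelium and from blood cells attached to it. Low flow was made by partial ligation of the left carotid artery, the opposite artery of the same animals gave high flow, and sham-operated animals gave a further control. The 48 hr experiments used male C57BL/6J mice of 6 to 7 weeks, each library being a pool of several flushes. Untreated low flow, high flow and sham groups had 3 pools each, read at 100 bp. Groups of 2 libraries, read at 150 bp, held low flow intima after control IgG, anti-GPIbα (platelet depletion), anti-Gr1 (depletion of Gr1+ leukocytes), PBS liposomes or clodronate liposomes (macrophage depletion), and high flow intima after IgG or PBS liposomes. One further PBS liposome pool and 1 further clodronate pool, both of low flow, were read at 100 bp. The 7 day groups carried Rbfox2 lox/lox and the Rosa26-mTmG reporter in EC-KO animals with Cdh5(PAC)-CreERT2 and in control littermates without Cre, of 2 to 7 months. At 7 d there were 3 low flow libraries and 2 high flow libraries per genotype. Cre driven by Cdh5 acts in endothelium, so blood cells in a flush keep intact Rbfox2. Primary aortic endothelial cells gave 1 EC-KO library and 1 control library after 7 days in culture, and a further library of eGFP-sorted cells after 5 days. A line of aortic endothelial cells, immortalized with an inducible SV40 T antigen that had been switched off, gave 1 library each left alone or after 48 hr with 10% plasma, with platelets plus macrophages, or with all of these together.

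Totals per library ran from 4064477 to 19035957 counts. Low flow pools A and B of the untreated set stood apart from the other untreated pools, as Actb alone took 10.6% and 10.1% of their counts, against 3.74% in low flow pool C and 0.516% to 1.5% in the high flow and sham pools. Their TMM factors, the scaling that edgeR derives from the bulk of genes, were 0.443 and 0.442, against 0.837 to 0.976 in the other 7 pools, so levels per library total and TMM-scaled levels differ in these pools. In the IgG and PBS liposome sets all low flow libraries came from one sequencing run and all high flow libraries from another, so flow and sequencing run cannot be told apart there. At 7 d all high flow libraries came from one run, while the low flow libraries numbered 1 of both genotypes came from an earlier run and 1 low flow library of each genotype from a later one, so flow is partly confounded with run there too. The endothelial markers were high in every carotid and primary library, with a summed level of 2425 to 6021 FPKM over 11 genes, but reached only 169 to 201 FPKM in the cell line. The sum per library total was lower at low flow, with 2518 to 3009 FPKM against 4999.7 to 5168 FPKM at high flow in untreated pools, 2595 to 2853 against 5825 to 6021 FPKM with IgG, and 2565 to 2766 against 4615 to 5257 FPKM with PBS liposomes. Of the 11 endothelial markers, 3, 6 and 4 fell and 2 rose in each of these sets, in that order. The median log2 values on the TMM scale were 0.35, −1.10 and −0.10. In untreated pools this median and the sum point in opposite directions, but they differ as measures as well as in scale. Macrophage markers (14 genes) summed to 2155 to 3500.1 FPKM in untreated low flow pools and to 65.1 to 165 FPKM in high flow pools, and markers of dividing cells (8 genes) to 215 to 414 FPKM and 10.8 to 21.6 FPKM. Neutrophil markers (9 genes in the table) summed to 488 to 1193 FPKM in untreated low flow pools and 17.9 to 37.9 FPKM in high flow pools, and smooth muscle markers (7 genes) to 1444 to 2699 FPKM and 317 to 380.0 FPKM. Fat markers (6 genes) ran the other way, with 1.01 to 1.36 FPKM in low flow and 73.9 to 1069 FPKM in high flow pools. In such bulk samples, fewer cells of a type and less RNA per cell cannot be told apart.

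FPKM were computed from the deposited expected counts, the effective gene length and the library total, and levels of different genes are compared only on this per-length scale. Among the 24 carotid libraries of 150 bp reads, Mbnl1 had the highest median level of the 10 genes, 106 FPKM, followed by Ptbp1 at 76.6, Mbnl2 at 69.4, Celf1 at 32.2, Qk at 26.3 and Ptbp3 at 23.8 FPKM. Celf2 at 4.86, Ptbp2 at 4.5 and Rbfox2 at 3.19 FPKM formed a lower tier, with ranges that overlapped, and Mbnl3 was lowest at 0.222 FPKM. The 24 libraries include those of EC-KO animals, in which Rbfox2 was at 0.169 to 1.09 FPKM. The ranges of Mbnl1, Ptbp1 and Mbnl2 overlapped as well, so the order within the top tier rests on medians alone. Mbnl2 varied least, from 48.8 to 88.9 FPKM. Ptbp1 ran from 49.2 to 215 FPKM and Qk from 11.5 to 76.5 FPKM. Replicates of 1 group differed by a median factor of 1.14 for Mbnl2 and 1.15 for Celf1, but of 1.47 for Celf2 and 1.69 for Mbnl3. The factor of Mbnl3 rests on 10 groups and those of the others on 14, as groups with a library at 3 counts or fewer were left out. Celf1 reached only 2.27 to 7.8 FPKM in the 11 carotid libraries of 100 bp reads, against 19.7 to 58 FPKM in those of 150 bp. When reads of 10 libraries of 150 bp were trimmed to 100 bp by the authors, its share of counts changed by factors of 0.996 to 1.06. Levels are therefore not compared between the sets.

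The first question was which of these regulators differ between low and high flow 48 hr after ligation. In untreated intima, 4 of 10 genes passed an adjusted p under 0.05 in edgeR's quasi-likelihood test with Benjamini-Hochberg adjustment, against 46.2% of all 11236 genes tested (5194 genes, and 2732 without pools A and B). Ptbp1, Mbnl3 and Celf1 rose and Mbnl2 fell. The median log2 fold-change of the 10 genes was 0.22, and that of all genes −0.07. Low flow against sham called 3 of 10 genes, Ptbp1, Mbnl3 and Celf1, all higher, against 40.3% of 11164 genes (4499 genes, 2513 to 4757 with 1 pool left out, and 0 without pools A and B).

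**Figure D1:**
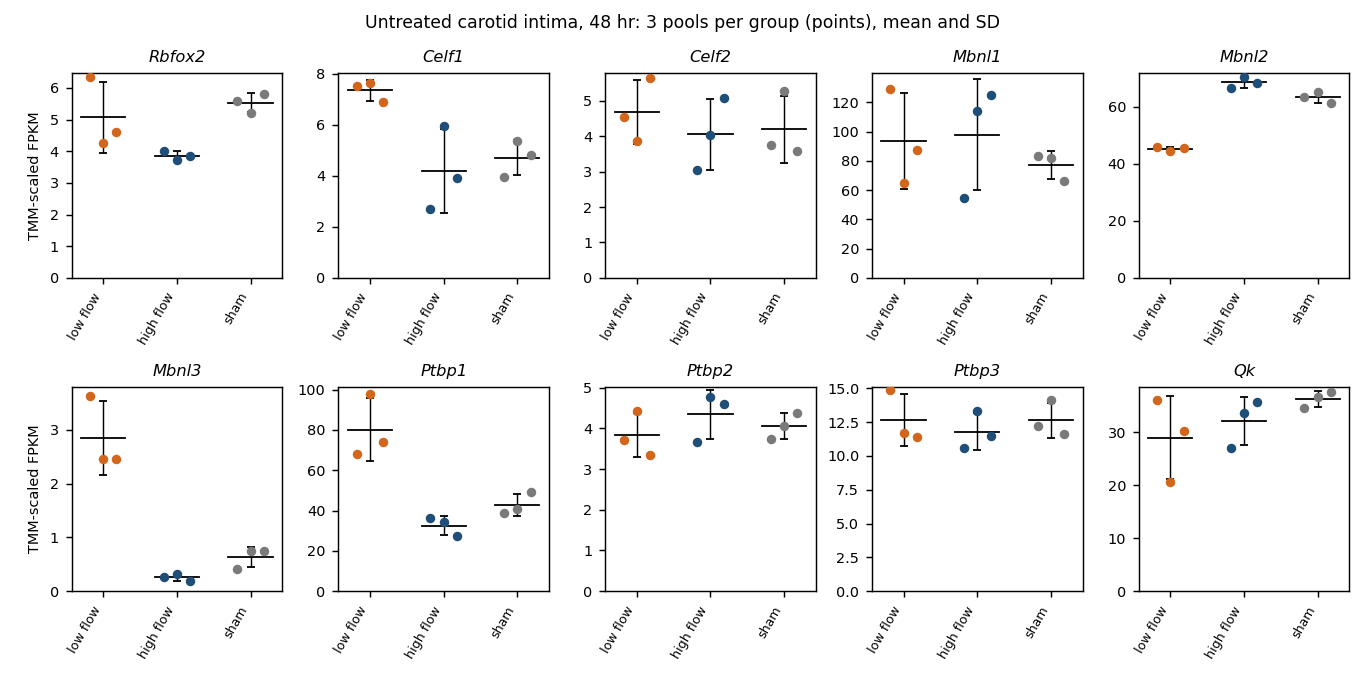
TMM-scaled FPKM (vertical axes, from 0) of the 10 genes in untreated low flow, high flow and sham pools at 48 hr, with 3 pools per group as points and bars for mean and SD. The 3 low flow pools lie above all 6 others for Ptbp1, Mbnl3 and Celf1, and below them for Mbnl2.

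Ptbp1, a broadly expressed repressor of alternative exons, lies at chr10:79317172-79327516 on the plus strand of mm9. Its level was 30.3, 43.3 and 68.5 FPKM in low flow pools A, B and C, 30.2, 31.2 and 25.1 FPKM in high flow pools D, E and F, and 35.8, 39.7 and 46.5 FPKM in sham pools G, H and I. On this scale pool A lay inside the high flow range and pool B inside the sham range. TMM-scaled levels of 68.3, 98 and 74.1 FPKM in low flow lay above the high flow range of 27.2 to 36.1 FPKM and the sham range of 38.8 to 49.1 FPKM. The log2 fold-change was 1.36 ± 0.22 (SE; n = 3 and 3; adjusted p = 5.1e-04, edgeR) against high flow and 0.91 ± 0.22 (adjusted p = 0.012, edgeR) against sham. Without pools A and B, which leaves pool C alone for low flow and takes the spread from the other group, it was 1.31 against high flow (adjusted p = 0.0042, edgeR) and 0.84 against sham (adjusted p = 0.11, edgeR), and without sham pool G the adjusted p of the latter was 0.064. Scaled by library totals only, it was 0.71 (adjusted p = 0.13) and 0.22 (adjusted p = 0.69).

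Mbnl3, the X-linked muscleblind paralog, lies at chrX:48470446-48559709 on the minus strand and was close to the detection limit in much of the series. It gave 93, 41 and 110 counts in the low flow pools, 8, 15 and 7 in the high flow pools and 14, 25 and 29 in the sham pools. The levels were 1.61, 1.08 and 2.26 FPKM in low flow, 0.22, 0.289 and 0.181 FPKM in high flow, and 0.389, 0.721 and 0.697 FPKM in sham. No low flow pool overlapped another group on either scale. The log2 fold-change was 3.47 ± 0.30 (adjusted p = 9.1e-06, edgeR) against high flow and 2.15 ± 0.29 (adjusted p = 0.0017, edgeR) against sham, and without pools A and B the latter was 1.99 (adjusted p = 0.064). Against high flow, the call was kept in each of 6 alternatives and with each of 6 pools left out. Of the 14 macrophage markers, 11 of 12 tested rose in low against high flow and all 8 markers of dividing cells rose, as did 5 of 5 neutrophil markers tested, 3 of 6 smooth muscle markers tested and 2 of 2 nerve markers tested. Nerve markers summed to 172 to 232 FPKM in low flow and 11.4 to 16.3 FPKM in high flow. The part of these cells in the level of Mbnl3 or Ptbp1 was not tested.

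Mbnl2, a muscleblind protein that acts on exons in brain and other tissues, lies at chr14:120674891-120830919 on the plus strand. It was at 20.3, 19.6 and 42 FPKM in low flow, 55.8, 63.8 and 63.1 FPKM in high flow, and 58.6, 63.7 and 58.1 FPKM in sham. TMM-scaled levels in low flow were 44.5 to 45.8 FPKM, and the high flow and sham pools lay between 61.4 and 70.4 FPKM, so the groups did not overlap on either scale. The fall was −0.54 ± 0.19 on the log2 scale against high flow (adjusted p = 0.04, edgeR), and the value against sham was −0.48 ± 0.17 (adjusted p = 0.055, edgeR). In the same contrast 4 of 4 fat markers tested and 3 of 11 endothelial markers fell, while 2 endothelial markers rose and the median of the 11 was 0.35, and their part in the value of Mbnl2 was not tested. With single pools left out, the call against high flow was kept only without pool C, and without both pools A and B the value was −0.47 (adjusted p = 0.2, edgeR). Leaving out any other pool gave log2 values of −0.53 to −0.52 with adjusted p of 0.085 to 0.12, and the adjusted p was 0.065 with RLE size factors and 0.11 without a filter on low counts. DESeq2 gave −0.49 against high flow (adjusted p = 0.024) and −0.43 against sham (adjusted p = 0.032), and a fit of all 3 groups gave −0.53 (adjusted p = 0.015, edgeR) and −0.44 (adjusted p = 0.039, edgeR). With library totals only the values were −1.16 (adjusted p = 0.0064, edgeR) and −1.14 (adjusted p = 0.02, edgeR).

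Celf1, which promotes decay of GU-rich transcripts beside its splicing role, lies at chr2:90780539-90859654 on the plus strand. Its counts were small here, 47, 31 and 75 in low flow, 20, 68 and 34 in high flow and 32, 44 and 46 in sham. The levels were 3.34, 3.37 and 6.36 FPKM in low flow, 2.27, 5.4 and 3.62 FPKM in high flow, and 3.67, 5.23 and 4.56 FPKM in sham, which overlapped. TMM-scaled levels did not, with 6.89 to 7.64 FPKM in low flow and at most 5.96 FPKM elsewhere. The log2 fold-change was 0.83 ± 0.30 (adjusted p = 0.042, edgeR) against high flow and 0.64 ± 0.22 (adjusted p = 0.048, edgeR) against sham. The first call was lost when A, B, C, D or F was left out (adjusted p of 0.065 to 0.1), and the other when any of its 6 pools was left out (adjusted p of 0.059 to 0.17). Without both pools A and B the values were 0.81 (adjusted p = 0.21, edgeR) and 0.59 (adjusted p = 0.28, edgeR). With library totals only, the value was 0.20 against high flow (adjusted p = 0.78) and −0.04 against sham (adjusted p = 0.96), and DESeq2 gave adjusted p of 0.052 and 0.086.

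The other 6 genes passed in neither comparison. Rbfox2 (chr15:76909420-77137483, minus strand) was at 2.81, 1.88 and 4.26 FPKM in low flow, 3.36, 3.37 and 3.54 FPKM in high flow, and 5.15, 5.09 and 5.49 FPKM in sham. On this scale the low flow mean of 2.98 FPKM was below the high flow mean of 3.42 FPKM, with overlap, and all low flow pools were below sham. TMM-scaled levels were 6.33, 4.25 and 4.61 FPKM in low flow, above the 3.72 to 4.01 FPKM of high flow and overlapping the 5.22 to 5.81 FPKM of sham, so the scale turns the direction against high flow. Its log2 fold-change was 0.46 ± 0.20 (adjusted p = 0.078, edgeR) for low against high flow and −0.12 ± 0.18 (adjusted p = 0.62, edgeR) for low flow against sham. The former was −0.20 with library totals only, and its adjusted p was 0.049 with all 3 groups in 1 fit. Celf2, a CELF protein of muscle, brain and lymphocytes, differed between low and high flow by 0.28 with a 95% interval from −0.25 to 0.81. Mbnl1, the main muscleblind protein of many tissues, differed by −0.02 with an interval from −0.81 to 0.78. Ptbp2, the neural paralog of Ptbp1, differed by −0.15, Ptbp3, the paralog known from blood cells, by 0.16, and Qk by −0.09. The 95% intervals of these 3 reached from −0.68 to 0.55.

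High flow was also set against sham. None of the 10 genes passed, nor did any of 11030 genes (0% called by edgeR, 868 at an unadjusted p under 0.05, 106 called by DESeq2, 63 without a filter, 68 without sham pool H and 0 without any other single pool). Of the 10, 3 had an unadjusted p under 0.05 in edgeR, all with lower values in high flow. These were Rbfox2 at −0.57 ± 0.16 (adjusted p = 0.36), Mbnl3 at −1.31 ± 0.37 (adjusted p = 0.36) and Ptbp1 at −0.45 ± 0.18 (adjusted p = 0.55). For each of them the pools of both groups did not overlap.

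Promoter sequences from RefSeq are shown for the 2 genes that were called against both high flow and sham and were still called against high flow with pool C as the only low flow pool, Ptbp1 and Mbnl3, and for the 1 gene that fell, Mbnl2. They are the 250 bases before the start in GRCm38.p6, the build of the sequence table, and capitals mark CACCC on either strand, the core of the box that Krüppel-like factors, known as flow-responsive in endothelium, can bind.
Ptbp1 (chr10:79854182-79854431, plus strand): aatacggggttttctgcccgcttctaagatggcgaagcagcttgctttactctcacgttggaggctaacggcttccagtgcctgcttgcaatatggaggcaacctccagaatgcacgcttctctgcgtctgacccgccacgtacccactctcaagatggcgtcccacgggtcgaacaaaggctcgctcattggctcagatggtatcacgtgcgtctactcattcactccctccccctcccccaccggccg
Mbnl3 (chrX:51205991-51206240, minus strand): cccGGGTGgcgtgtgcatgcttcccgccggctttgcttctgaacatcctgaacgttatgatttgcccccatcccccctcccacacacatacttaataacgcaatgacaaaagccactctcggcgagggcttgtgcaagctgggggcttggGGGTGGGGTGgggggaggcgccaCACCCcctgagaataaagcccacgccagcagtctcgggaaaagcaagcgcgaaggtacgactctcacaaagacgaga
Mbnl2 (chr14:120275419-120275668, plus strand): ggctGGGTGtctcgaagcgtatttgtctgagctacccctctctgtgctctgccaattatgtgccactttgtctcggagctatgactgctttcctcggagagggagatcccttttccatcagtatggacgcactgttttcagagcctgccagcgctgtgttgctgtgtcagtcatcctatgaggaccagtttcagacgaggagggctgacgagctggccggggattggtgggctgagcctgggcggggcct
CACCC occurred 4 times for Mbnl3, 1 time for Mbnl2 and 0 times for Ptbp1, and 52% of 32851 promoters of that length hold at least 1 match. Celf2, Mbnl1 and Qk, which were not called in untreated pools, also hold it, at 1 or more of their starts. TGANTCA, the AP-1 element, occurred in none of the 3 sequences shown, at 1 start of Celf2 and in 6.75% of promoters. Of the 10 genes, 8 had an entry, and Rbfox2 and Ptbp3 are named only. A match in letters is a description of the sequence.

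The comparison of low and high flow was repeated in animals given control IgG or PBS liposomes. With IgG, 1 of 10 genes passed, Mbnl1, which fell, against 40.5% of 13401 genes (5422 genes, and 2142 to 4231 with 1 library left out). With PBS liposomes 5 of 10 passed, against 35.0% of the same genes (4692 genes, and 1482 to 3839 with 1 left out). Rbfox2, Mbnl3 and Ptbp1 rose, and Mbnl1 and Mbnl2 fell. Of the 10 genes, none passed in a test of the difference between IgG and PBS sets (adjusted p of 0.81 or more, edgeR). The share of all genes passing that test is not given here, so this is not a result about the 10 in particular.

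**Figure D2:**
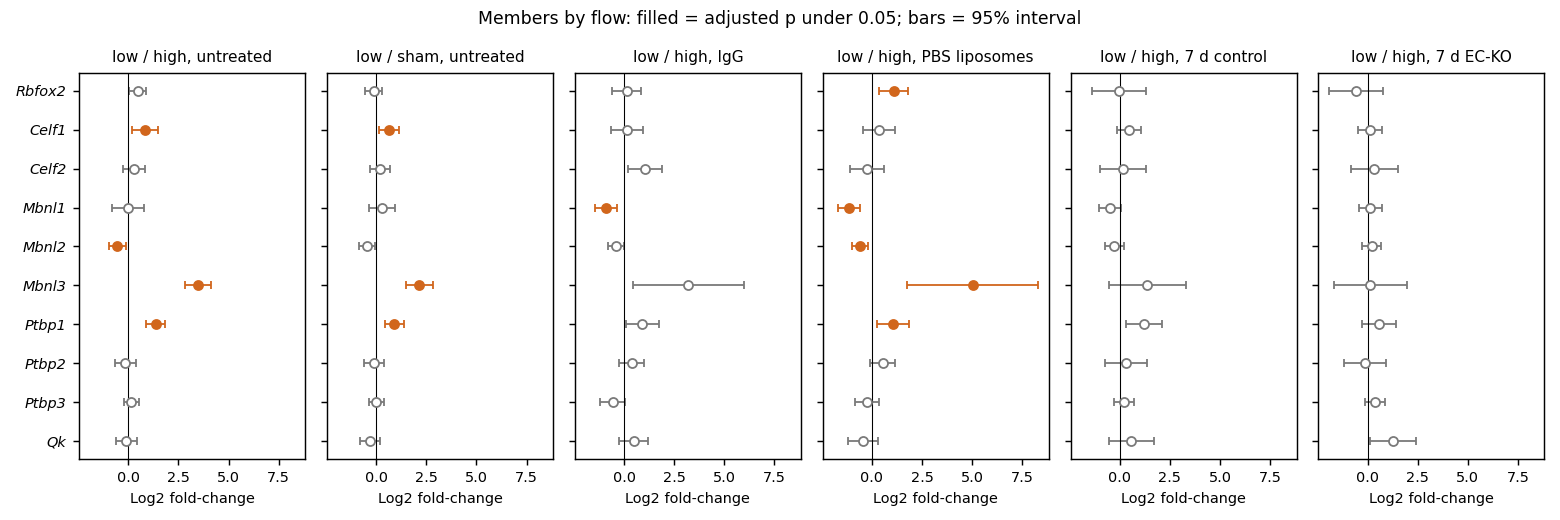
Log2 fold-change of low against high flow, or of low flow against sham, for the 10 genes in 6 comparisons, with 95% intervals (horizontal bars) and filled points where the adjusted p was under 0.05. Ptbp1 and Mbnl3 lie to the right of 0 in all 6 panels, with intervals that cross 0 in some.

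Mbnl1 lies at chr3:60277032-60433670 on the plus strand. It was at 88.7 and 87.4 FPKM with IgG at low flow and at 128 and 180.2 FPKM at high flow. With PBS liposomes it was at 64.7 and 60.3 FPKM at low flow and 159 and 138 FPKM at high flow, so the groups did not overlap in either set. The fall was −0.90 ± 0.25 (n = 2 and 2; adjusted p = 0.016, edgeR) and −1.14 ± 0.25 (adjusted p = 0.0063, edgeR). Of the 11 endothelial markers 6 fell with IgG and 4 with PBS liposomes, and their part in the value of Mbnl1 was not tested. The IgG call was lost without low IgG library 1 or 2 or high IgG library 2 (log2 of −0.89 to −0.59, adjusted p of 0.071 to 0.13), and the PBS call without low library 2 or high library 1 (adjusted p of 0.057 and 0.061). In the untreated pools the value was near 0 on the TMM scale. Mean FPKM there were 55.4 at low flow and 88 at high flow, with high flow pools at 45.6, 103 and 116 FPKM that spread widely.

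Mbnl2 was at 64.8 and 67.6 FPKM at low flow and 79.1 and 86.4 FPKM at high flow with IgG. With PBS liposomes it was at 48.8 and 58.8 FPKM at low flow and 87 and 88.9 FPKM at high flow. High flow was above low flow in each set without overlap. The log2 value was −0.41 ± 0.18 with IgG (adjusted p = 0.088, edgeR) and −0.60 ± 0.18 with PBS liposomes (adjusted p = 0.024, edgeR), and the latter call was lost without any 1 of its 4 libraries (adjusted p of 0.064 to 0.17).

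Ptbp1 was at 117 and 111 FPKM at low flow and at 55.3 and 57.8 FPKM at high flow with IgG. With PBS liposomes it was at 121 and 112 FPKM at low flow and 60.3 and 61.2 FPKM at high flow. The low flow libraries were thus at about the same level in both sets, well above those of high flow. Markers of dividing cells summed to 262 and 469 FPKM at low flow and 17.4 and 7.26 FPKM at high flow with IgG, where 3 of 8 rose, and to 56.4 and 456 FPKM and 2.4 and 148 FPKM with PBS liposomes, where none of 8 passed. Their part in the level of Ptbp1 was not tested. The log2 fold-change of Ptbp1 with IgG was 0.92 ± 0.37 (adjusted p = 0.064, edgeR). There 3 of 6 alternatives called it, but no fit with a library left out did. With PBS liposomes the log2 fold-change was 1.05 ± 0.37 (adjusted p = 0.045, edgeR). The latter call was lost without any 1 of its 4 libraries (log2 of 0.98 to 1.12, adjusted p of 0.12 to 0.18), and with library totals only (adjusted p = 0.054).

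Mbnl3 gave 53 and 81 counts at low flow and 0 and 10 at high flow with IgG, and 18 and 66 at low flow and 0 and 2 at high flow with PBS liposomes. The level in high flow was 0.102 times that in low flow with IgG (exact 95% counting interval 0.048 to 0.194) and 0.0295 times with PBS liposomes (0.00352 to 0.11), from counts summed over libraries. These intervals cover counting error only and leave out the spread between libraries. The groups did not overlap. The adjusted p in edgeR was 0.062 with IgG (0.02 without high library 2) and 0.023 with PBS liposomes, and the latter was 0.15 without low library 2 or without high library 1. Macrophage markers summed to 2221 to 2366 FPKM in low IgG and 71.4 to 267 FPKM in high IgG libraries, and to 1355 to 2233 FPKM in low PBS and 108 to 202 FPKM in high PBS libraries. Of 8 neutrophil markers tested 5 rose at low flow in each set, as did 2 of 7 smooth muscle markers. The part of these cells in the level of Mbnl3 was not tested.

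Rbfox2 was at 4.59 and 6.9 FPKM at low flow and 2.74 and 3.11 FPKM at high flow with PBS liposomes, which did not overlap. With IgG it was at 4.72 and 5.25 FPKM at low flow and 4.41 and 4.18 FPKM at high flow, closer together. The log2 fold-change was 1.08 ± 0.33 with PBS liposomes (adjusted p = 0.027, edgeR) and 0.13 ± 0.33 with IgG (adjusted p = 0.77, edgeR). The difference between the sets was −0.95 ± 0.47 (IgG minus PBS, adjusted p = 0.85, edgeR). The PBS call was lost without low library 2 (0.78, adjusted p = 0.21), high library 1 (1.01, adjusted p = 0.15) or high library 2 (1.17, adjusted p = 0.075).

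Qk (chr17:10399336-10512245, minus strand) showed large differences between sets. It was at 27.7 and 23.9 FPKM at low flow and 14.9 and 19.9 FPKM at high flow with IgG, but at 47.7 and 47.2 FPKM at low flow and 76.5 and 63.3 FPKM at high flow with PBS liposomes. The log2 value of low against high flow was 0.48 ± 0.34 with IgG (adjusted p = 0.27, edgeR) and −0.45 ± 0.34 with PBS liposomes (adjusted p = 0.32, edgeR). Celf2 (chr2:6460751-7002348, minus strand) was at 5.04 and 4.17 FPKM at low flow and 1.3 and 2.9 FPKM at high flow with IgG, with a value of 1.04 ± 0.39 (adjusted p = 0.051, edgeR; 1.78 and 0.014 without high library 2). With PBS liposomes it was at 3.35 and 3.24 FPKM at low flow and 4.7 and 3.67 FPKM at high flow (−0.24 ± 0.38, adjusted p = 0.66, edgeR). Celf1, Ptbp2 (chr3:119421660-119486306, minus strand) and Ptbp3 (chr4:59484740-59562236, minus strand) passed in neither set, with log2 values of 0.16 and 0.37, 0.39 and 0.55, and −0.57 and −0.24 for IgG and PBS liposomes.

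The next question was whether depleting platelets, Gr1+ leukocytes or macrophages changed these genes at low flow. With anti-GPIbα, 1 of 10 genes passed against IgG, Mbnl3, which fell, while 16.5% of 13401 genes passed. Those 2216 genes became 83 or 89 without IgG library 1 or 2, and 15 or 1 without anti-GPIbα library 1 or 2. With anti-Gr1 none passed, as for all genes (0% by edgeR, 2432 at an unadjusted p under 0.05, 179 called by DESeq2), and 1 of the 10 had an unadjusted p under 0.05. With clodronate none of the 10 passed against PBS liposomes, where 0.119% of genes did (16 genes, and 467 called by DESeq2), and again 1 of the 10 had an unadjusted p under 0.05. The 16 genes became 936 without clodronate library 2, 29 without PBS library 1, and 0 without clodronate library 1 or PBS library 2. DESeq2 called none of the 10 with anti-Gr1 or clodronate. The anti-GPIbα and anti-Gr1 comparisons share the same IgG libraries.

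**Figure D3:**
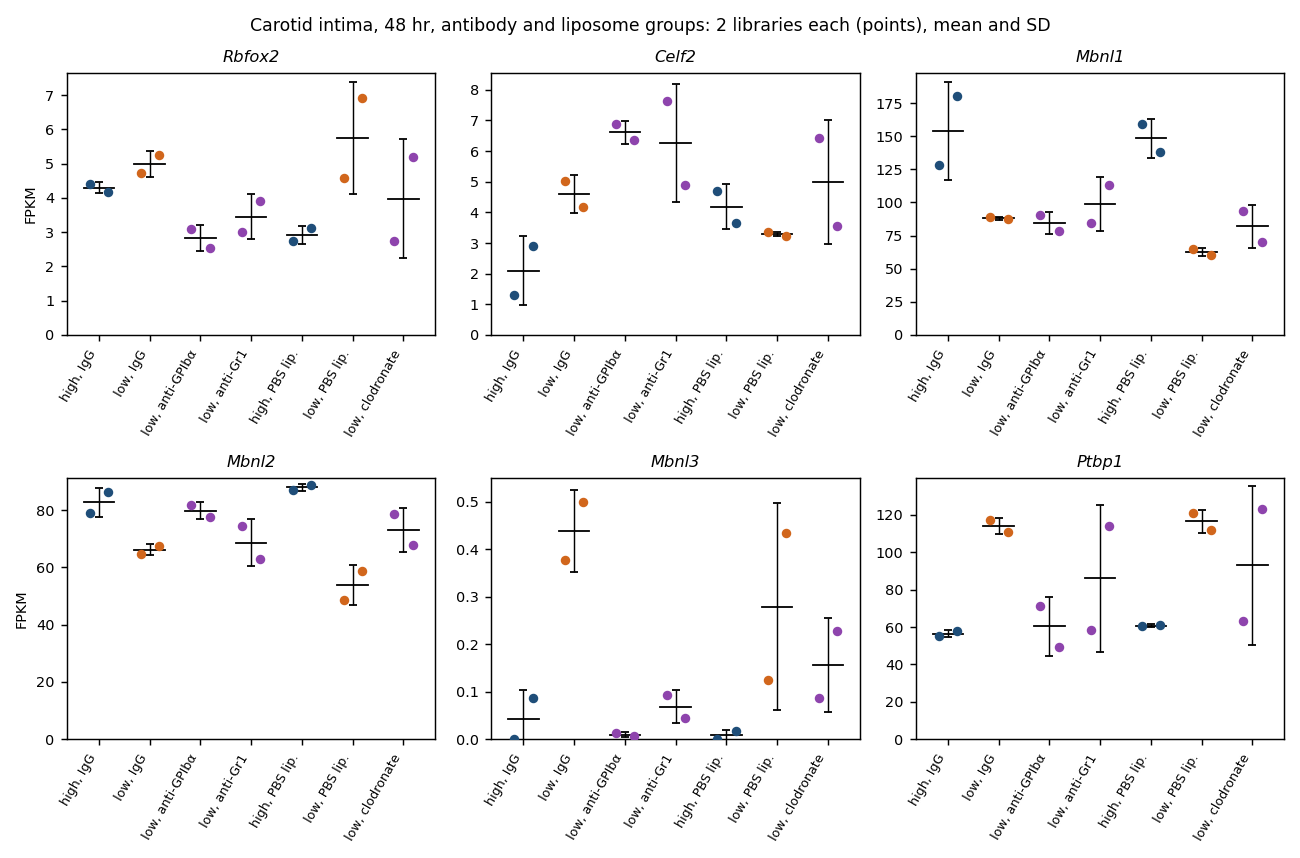
FPKM (vertical axes, from 0) of 6 of the genes in 7 groups of 2 libraries at 48 hr, with bars for mean and SD. Ptbp1 is at 111 to 121 FPKM in the low flow control groups and at 49.2 to 71.4 FPKM after anti-GPIbα, and its 2 libraries lie far apart after anti-Gr1 and after clodronate.

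Mbnl3 gave 2 counts and 1 count after anti-GPIbα, against 53 and 81 with IgG. Summed over libraries, its level was 0.0223 times that with IgG, and the adjusted p was 0.035 in edgeR. The exact 95% counting interval was 0.00453 to 0.0664, which leaves out the spread between libraries. The call was lost without any 1 of the 4 libraries (adjusted p of 0.066 to 0.2). After anti-Gr1 it gave 14 and 6 counts, 0.159 times the IgG level (0.094 to 0.255, likewise without the spread between libraries; adjusted p = 0.27, edgeR). After clodronate it gave 11 and 28 counts against 18 and 66 with PBS liposomes, which overlapped (−0.93 ± 1.13, adjusted p = 0.72, edgeR). In the single 100 bp pools it went from 1.32 FPKM with PBS liposomes to 0.554 FPKM with clodronate, a ratio of 0.419 (exact 95% counting interval 0.297 to 0.584). Mbnl3 was the only 1 of the 10 past 2-fold in that pair, which has no replicate, while 12.4% of genes with 10 counts or more were past 2-fold.

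Macrophage markers moved in the same libraries. Their sum was 219 to 337 FPKM after anti-GPIbα, with 8 of 14 lower than with IgG, 1256 to 1283 FPKM after anti-Gr1, and 240.0 to 249 FPKM after clodronate. Markers of dividing cells summed to 4.29 and 6.42 FPKM after anti-GPIbα, 32.7 and 17.6 FPKM after anti-Gr1, and 11.9 and 419 FPKM after clodronate, against 262 and 469 FPKM with IgG and 56.4 and 456 FPKM with PBS liposomes. Neutrophil markers summed to 7.38 and 19.6 FPKM after anti-GPIbα, where 5 of 8 tested fell, and to 22.8 and 43.7 FPKM after anti-Gr1, where none of 8 passed, against 426 and 113 FPKM with IgG. Smooth muscle markers summed to 423 and 597 FPKM after anti-GPIbα, where 2 of 7 fell, and to 1096 and 3778 FPKM after anti-Gr1, against 2669 and 2853 FPKM with IgG. Nerve markers summed to 12.1 and 6.07 FPKM after anti-GPIbα, where 2 of 3 tested fell, and to 20.4 and 14.4 FPKM after anti-Gr1, against 50.4 and 65.3 FPKM with IgG. The part of any of these cells in the levels of Mbnl3 and Ptbp1 was not tested.

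Ptbp1 was at 71.4 and 49.2 FPKM after anti-GPIbα, against 117 and 111 FPKM with IgG, with no overlap. The log2 value was −0.95 ± 0.37 (adjusted p = 0.088, edgeR), and 2 of 7 alternatives called it, but no fit with a library left out did. After anti-Gr1 it was at 58.4 and 114 FPKM and after clodronate at 63 and 123 FPKM, so that 1 library of each group was near the high flow level and the other near the low flow level. The values were −0.37 ± 0.36 (adjusted p = 0.6, edgeR) and −0.42 ± 0.36 (adjusted p = 0.59, edgeR).

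Rbfox2 was at 3.09 and 2.55 FPKM after anti-GPIbα, below 4.72 and 5.25 FPKM with IgG, a value of −0.85 ± 0.33 (adjusted p = 0.09, edgeR). It was at 2.99 and 3.92 FPKM after anti-Gr1 (−0.51 ± 0.33, adjusted p = 0.42, edgeR), also without overlap. After clodronate it was at 2.75 and 5.2 FPKM, against 4.59 and 6.9 FPKM with PBS liposomes, with overlap (−0.63 ± 0.33, adjusted p = 0.39, edgeR). As a ratio of the 2 libraries, Celf1 showed the widest gap of these genes after anti-Gr1, 19.7 against 48.5 FPKM.

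Mbnl2 was at 81.9 and 77.7 FPKM after anti-GPIbα and at 78.6 and 67.8 FPKM after clodronate, above all libraries of the matching controls. Endothelial markers were higher in the same libraries, with sums of 4365 and 4456 FPKM after anti-GPIbα (2 of 11 rose) against 2853 and 2595 FPKM with IgG, and 4362 and 3375 FPKM after clodronate (none of 11 passed) against 2565 and 2766 FPKM with PBS liposomes, and their part in the level of Mbnl2 was not tested. The log2 values of Mbnl2 were 0.24 ± 0.18 (adjusted p = 0.35, edgeR) and 0.34 ± 0.18 (adjusted p = 0.39, edgeR). Ptbp2 had the lowest unadjusted p after clodronate, with 4.28 and 4.48 FPKM against 7.19 and 5.61 FPKM (−0.65 ± 0.28, adjusted p = 0.32, edgeR). Qk was at 24.9 and 55.7 FPKM after anti-GPIbα, a wide spread, and at 27.7 and 38.2 FPKM after clodronate against 47.7 and 47.2 FPKM (−0.63 ± 0.34, adjusted p = 0.39, edgeR). Celf2 was at 4.91 to 7.62 FPKM over the anti-GPIbα and anti-Gr1 libraries, against 5.04 and 4.17 FPKM with IgG, and did not pass.

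**Figure D4:**
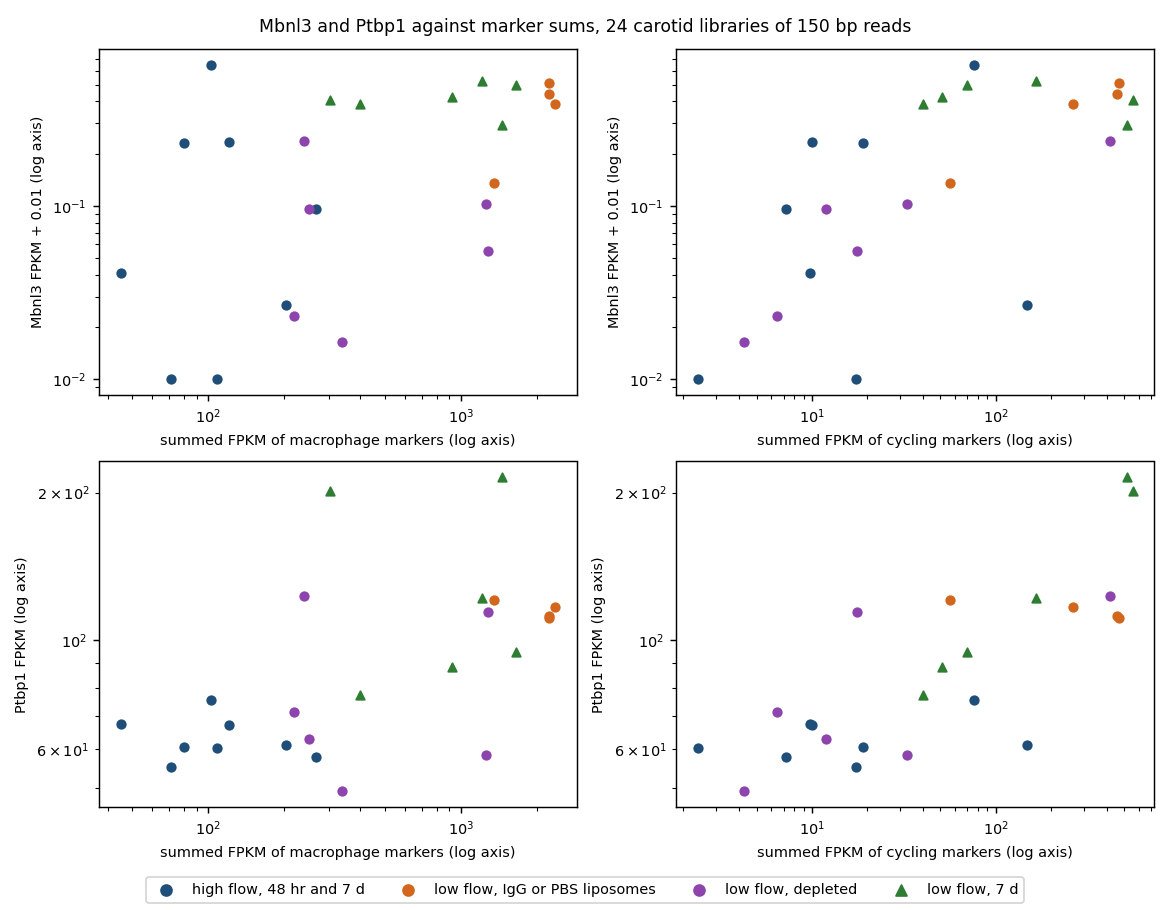
Mbnl3 (with 0.01 FPKM added) and Ptbp1 against the summed FPKM of macrophage and of cycling markers in the 24 carotid libraries of 150 bp reads, on log axes. Ptbp1 is highest, 202 and 215 FPKM, in the 2 libraries with the most cycling marker RNA, 555 and 516 FPKM. The 2 low flow libraries with PBS liposomes are at 112 and 121 FPKM of Ptbp1, although their cycling sums lie far apart, at 56.4 and 456 FPKM.

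At 7 d the study asked what endothelial loss of Rbfox2 does. Rbfox2 itself was examined first. At low flow it gave 1.09, 0.169 and 0.622 FPKM in EC-KO libraries 1, 4 and 5, and 3.27, 5.73 and 2.74 FPKM in control libraries 1, 4 and 5. At high flow it gave 0.791 and 1.05 FPKM in EC-KO libraries 4 and 5, and 3.66 and 3.84 FPKM in the controls. All EC-KO libraries lay below all controls, in the direction of their labels. The log2 value was −2.61 ± 0.58 at low flow (n = 3 and 3; adjusted p = 0.69 over all genes, edgeR) and −2.06 ± 0.69 at high flow (n = 2 and 2; adjusted p = 1, edgeR). Over alternatives at low flow the adjusted p ran from 0.0097 (DESeq2) to 0.97 (without control library 5). The gene-level count covers all exons, including any outside the floxed part, and cells without Cre keep their own Rbfox2.

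None of the 10 genes passed between EC-KO and control at either flow. At low flow no gene of 13352 passed in edgeR (0% called, 880 at an unadjusted p under 0.05, 16 called by DESeq2), and 2 of the 10, Rbfox2 and Ptbp2, had an unadjusted p under 0.05. DESeq2 called Rbfox2 there. At high flow 0.00749% passed, which is 1 gene, lower in EC-KO and none of the 10. There 293 genes, 1 of the 10 among them, had an unadjusted p under 0.05 in edgeR. DESeq2 called 29 genes there, none of the 10. For the difference of the EC-KO effect between low and high flow, none passed either (0% called by edgeR, 538 genes at an unadjusted p under 0.05, 21 called by DESeq2, none of them among the 10). Low against high flow at 7 d called none of the 10 in controls, where 2.40% of genes passed, and none in EC-KO animals, where 1.09% passed. These are 320 and 146 genes in edgeR, against 2224 and 965 in DESeq2. With 1 library left out the first became 3897 without low flow control library 1 and 3 to 52 otherwise, and the second 1 to 15. Without low flow control library 1, 1476 genes passed between genotypes at low flow.

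**Figure D5:**
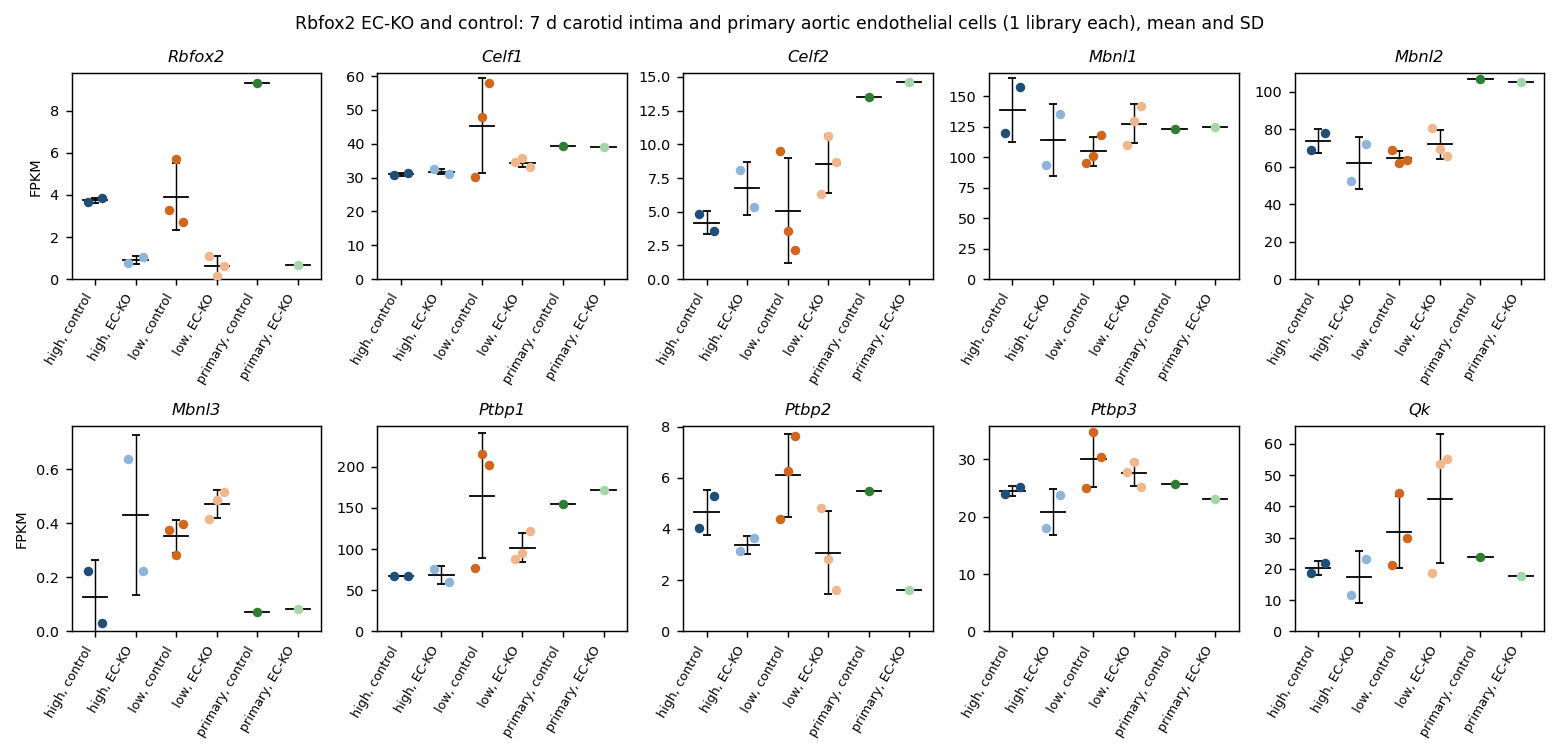
FPKM (vertical axes, from 0) of the 10 genes in 7 d carotid intima of control and EC-KO animals (3 low flow and 2 high flow libraries each) and in primary aortic endothelial cells (1 library each), with mean and SD. Rbfox2 is at 0.169 to 1.09 FPKM in every EC-KO library and at 2.74 to 9.33 FPKM in every control.

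Ptbp2 was at 4.8, 2.82 and 1.61 FPKM in EC-KO libraries 1, 4 and 5 at low flow and at 4.38, 6.25 and 7.64 FPKM in controls. EC-KO library 1 overlapped the controls. At high flow it was at 3.14 and 3.63 FPKM in EC-KO and 4.03 and 5.27 FPKM in control libraries, which did not overlap. The log2 values were −0.95 ± 0.43 (adjusted p = 0.69, edgeR) and −0.50 ± 0.52 (adjusted p = 1, edgeR).

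Ptbp1 at low flow was at 77.5, 215 and 202 FPKM in control libraries 1, 4 and 5, and at 88.1, 94.8 and 122 FPKM in EC-KO libraries 1, 4 and 5. Control library 1, which came from an earlier sequencing run than the other control libraries, was near the high flow level of 67.1 and 67.6 FPKM in controls. EC-KO high flow libraries were at 75.7 and 60.5 FPKM. The value of low against high flow was 1.21 ± 0.39 in controls (adjusted p = 0.097, edgeR) and 0.57 ± 0.38 in EC-KO (adjusted p = 0.51, edgeR), and EC-KO against control at low flow was −0.68 ± 0.34 (adjusted p = 0.69, edgeR). For flow in controls DESeq2 gave 1.25 (adjusted p = 0.018), a fit with the replicate number as a block 1.38 (adjusted p = 0.012, edgeR) and the run of the high flow libraries alone, with 1 low flow library per genotype, 1.58 (adjusted p = 0.0024, edgeR). Without control library 1 it was 1.56 (adjusted p = 7.7e-04, and 0.70 with 0.015 for Celf1), and the genotype value at low flow was −1.03 (adjusted p = 0.014). In EC-KO animals the flow value of Ptbp1 ran from 0.42 to 0.87 over alternatives and left-out libraries. There 1 of 8 alternatives called it, the run of the high flow libraries alone. The difference in EC-KO effect between flows was −0.65 ± 0.54 (adjusted p = 0.99, edgeR).

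Celf2 showed the opposite arrangement at low flow. It was at 9.5, 3.55 and 2.17 FPKM in control libraries 1, 4 and 5 and 6.28, 10.6 and 8.69 FPKM in EC-KO libraries, so that control library 1 again overlapped the other genotype. At high flow it was at 4.8 and 3.6 FPKM in control and 8.12 and 5.33 FPKM in EC-KO libraries. The genotype values were 0.79 ± 0.46 (adjusted p = 0.69, edgeR) and 0.63 ± 0.56 (adjusted p = 1, edgeR). Without control library 1 the low flow value was 1.59 (adjusted p = 0.021). Celf1 was at 30.3, 47.8 and 58 FPKM in low flow controls against 34.6, 35.7 and 33 FPKM in EC-KO, a value of −0.38 ± 0.24 (adjusted p = 0.7, edgeR) that became −0.61 without control library 1 (adjusted p = 0.04). In that fit the adjusted p of Rbfox2 was 0.026 at a value of −2.73.

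Markers of dividing cells were low in control library 1 at low flow, with a sum of 40.4 FPKM, against 516 and 555 FPKM in control libraries 4 and 5 and 51 to 166 FPKM in the EC-KO libraries. Macrophage markers summed to 399.6, 1458 and 302 FPKM in control libraries 1, 4 and 5, and to 922, 1652 and 1213 FPKM in EC-KO libraries 1, 4 and 5 at low flow. Fibroblast markers (5 genes) summed to 391, 195 and 90.6 FPKM in these controls and to 466, 1696 and 444 FPKM in EC-KO, without overlap, though none of the 5 passed. Endothelial markers summed to 3888, 2425 and 2526 FPKM in these controls, highest in control library 1, and to 3167 to 3424 FPKM in EC-KO. Lymphocyte markers (6 genes) summed to 58.8, 2.99 and 3.21 FPKM in these controls and 11, 3.88 and 4.06 FPKM in EC-KO, and at high flow to 6.56 and 1.69 FPKM in control and 122 and 16.5 FPKM in EC-KO libraries 4 and 5. Fat markers summed to 112, 1.8 and 9.37 FPKM in the low flow controls and to 36.1, 4.81 and 12.6 FPKM in EC-KO. Control library 1 was thus the highest of the low flow libraries for both lists. The part of any of these cells in the values of Ptbp1, Ptbp2, Celf1 and Celf2 was not tested.

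Qk at low flow was at 21.4, 44.3 and 30 FPKM in control and 18.6, 53.7 and 55.1 FPKM in EC-KO libraries, and at high flow at 18.6 and 21.8 FPKM and 11.5 and 23.3 FPKM. In EC-KO animals low against high flow was 1.26 ± 0.51 (adjusted p = 0.27, edgeR), the 1 of the 10 with an unadjusted p under 0.05 there, and without both low flow libraries numbered 1 it was 1.62 (adjusted p = 0.029). With the replicate number as a block it was 1.55 (adjusted p = 0.027, edgeR). Mbnl1 was at 95.2, 101 and 118 FPKM in low flow controls and at 119.9 and 157 FPKM in high flow controls, without overlap (−0.49 ± 0.25, adjusted p = 0.26, edgeR). In EC-KO animals it was at 110.2, 129.6 and 142 FPKM at low flow and 93.4 and 135 FPKM at high flow, which overlapped. Mbnl2, Mbnl3 and Ptbp3 did not pass, with genotype values at low flow of 0.18, 0.45 and −0.10.

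Primary aortic endothelial cells, sorted by their surface markers and cultured, gave 1 library per genotype, so no difference has a replicate check. Rbfox2 was at 9.33 FPKM in the control and 0.675 FPKM in the EC-KO library, a ratio of 0.0723 (exact 95% counting interval 0.0524 to 0.0976). Ptbp2 was at 5.5 and 1.63 FPKM, a ratio of 0.295 (0.215 to 0.399). These were the 2 of 9 genes with 10 counts or more that were past 2-fold, both lower, against 12.3% of all genes. Rbfox2 is the deleted gene, so its fall was set by the design, and only Ptbp2 can be set against that share. The intervals cover counting error only.

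The remaining genes lay close together in these libraries. Ptbp1 was at 155 and 172 FPKM, Mbnl1 at 123 and 125 FPKM, Mbnl2 at 107 and 105 FPKM, Celf1 at 39.4 and 39 FPKM and Celf2 at 13.5 and 14.6 FPKM in the control and EC-KO cells. Ptbp3 was at 25.6 and 23.1 FPKM and Qk at 23.8 and 17.7 FPKM, a ratio of 0.743 for Qk. Mbnl3 gave 9 and 7 counts, at or under 0.0827 FPKM. Macrophage markers summed to 346 FPKM in the control and 2.04 FPKM in the EC-KO library, where 11 of 14 had 3 counts or fewer, and their part in the differences was not tested. The eGFP-sorted library, read at 100 bp, held 5.57 FPKM of Rbfox2, 2.56 FPKM of Ptbp2 and 81.4 FPKM of Ptbp1.

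In the cell line, the question was which genes respond to plasma or to platelets and macrophages added for 48 hr. With plasma none of 10 genes was past 2-fold, against 13.9% of all genes, and with platelets and macrophages none was, against 13.1%. With all of these, 1 of 10 was past 2-fold, Celf2, against 23.1% of all genes. Each condition is 1 library, and the 3 comparisons share the untreated culture.

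Celf2 was at 17.2 FPKM untreated, 14.5 FPKM with plasma, 13.2 FPKM with platelets and macrophages and 6.01 FPKM with all. The last ratio was 0.349 (exact 95% counting interval 0.32 to 0.38). Mbnl3 was at 4.91, 3.19, 2.95 and 2.78 FPKM in the same order, against at most 0.638 FPKM in the carotid libraries of the same read length. Mbnl1 was at 107, 122, 85.4 and 68.7 FPKM.

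Ptbp1 was at 118 FPKM untreated, 123 and 127 FPKM with plasma and with cells, and 172 FPKM with all, a ratio of 1.47 (1.41 to 1.52). Celf1 was at 31.1, 37.4, 44.9 and 48.5 FPKM, with a last ratio of 1.56 (1.44 to 1.69). Rbfox2 was at 8.28, 7.67, 7.42 and 11.2 FPKM. Ptbp2 was at 14, 11.9, 10.8 and 11.5 FPKM, against at most 7.64 FPKM in the carotid libraries of the same read length. Mbnl2 (56.4 to 65.2 FPKM), Ptbp3 (12.2 to 15.8 FPKM) and Qk (17.4 to 26.4 FPKM) moved less than 1.5-fold against the untreated culture. Macrophage markers summed to 16.4, 45, 393 and 271 FPKM in these 4 cultures, in the order given, and their part in the ratios was not tested.

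Related genes were counted from 3 lists. Of 10 paralogs of these families, Rbfox1 had 3 counts or fewer in 33 of 35 carotid libraries, Rbfox3 in 27, Celf3 in 34, Celf5 in 25, Celf6 in 33 and Khdrbs2 in all 35. Celf4 had 3 counts or fewer in 11, with a median of 0.141 and a highest level of 1.48 FPKM. None of the 3 or 4 paralogs tested passed in any of 13 comparisons.

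Of 10 partners, the LASR complex that Rbfox proteins join and the Ptbp1 co-regulators Raver1 and Raver2, 5 rose and none fell of 9 tested in untreated low against high flow, where 46.2% of all genes passed in either direction. Among them Hnrnpc, which packages nascent transcripts, rose by 1.40 ± 0.25 (adjusted p = 0.0011, edgeR). The median log2 value of the list was 0.82, against −0.07 for all genes. Against sham 4 rose, among them Hnrnpc at 1.11, and Hnrnpul2 fell (40.3% of all genes). With IgG 4 rose and 1 fell of 10 (40.5% of all genes), and with PBS liposomes 4 rose and none fell (35.0% of all genes), with Ilf2 and Hnrnpc leading in both. With anti-GPIbα, where 16.5% of all genes passed, 3 fell, among them Hnrnpm at −1.09 ± 0.28 (adjusted p = 0.032, edgeR) and Hnrnpc at −0.95 ± 0.27 (adjusted p = 0.04, edgeR). The other comparisons called none.

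Of 24 other regulators of tissue-specific splicing, 16 were tested in untreated pools, where 3 rose and 5 fell in low against high flow, against 46.2% of all genes passing in either direction. Rbm47, an RNA-binding protein of epithelia and myeloid cells, rose by 2.34 ± 0.49 (adjusted p = 0.0029, edgeR), and Fubp1, which binds single-stranded nucleic acid, rose less (adjusted p = 3.7e-04, edgeR). Nova2, a splicing factor of neurons and vessels, fell by 1.66 on the log2 scale and Zcchc24 by 1.55. Against sham 4 rose and 5 fell (40.3% of all genes), with Rbm47 and Rbpms2 highest and Nova2 and Zcchc24 lowest. With IgG and with PBS liposomes 5 rose and 2 fell of 18 (40.5% and 35.0% of all genes), with Rbm47 and Rbpms2 highest and Zcchc24 and Rbms3 lowest in both. With anti-GPIbα 3 rose and 3 fell (16.5% of all genes). Zcchc24 rose by 1.21 and Nova1 by 1.40, while Rbm47, with means of 1.09 FPKM with IgG and 0.0172 FPKM after anti-GPIbα, and Elavl1 at −1.18 fell. Esrp1 and Srrm4, of epithelia and neurons, had 3 counts or fewer in 34 of 35 carotid libraries. Other comparisons called none.

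Genes with the most similar profiles over the 35 carotid libraries were looked up for each regulator among 8328 genes, by Pearson's r of log2(FPKM + 1). Since levels differ between the read lengths, r over the 24 libraries of 150 bp alone follows each value. Points share read length, depth and cell makeup, so r is a description. Ptbp1 was closest to Lmnb2 (0.96, then 0.94), a nuclear lamin, and Gemin4 (0.95, then 0.91), a part of the SMN complex. Mbnl3 was closest to Hcls1 and Ccl5 (both 0.84, then 0.84 and 0.73), genes of leukocytes. Mbnl2 was closest to Ubl3 (0.96, then 0.79) and Clcn3 (0.95, then 0.82), and Mbnl1 to Shoc2 and Mtmr6 (both 0.93, then 0.86 and 0.93). Ptbp3 was closest to Ipo8 (0.97, then 0.83) and Cand1 (0.96, then 0.89), and Celf1 to Nupl1 and Ap1ar (both 0.98, then 0.85 and 0.78), genes picked over read lengths between which Celf1 differs. Rbfox2 was closest to Fkbp7 (0.81, then 0.84) and Fkbp14 (0.78, then 0.84), and Celf2 to Deptor (0.86 in both) and Psen2 (0.82 in both). Qk was closest to Egln1 and Khdrbs3 (both 0.85, then 0.88 and 0.87), and Ptbp2 to Haus2 (0.80, then 0.74) and Eftud1 (0.78, then 0.79). Between the regulators, over the 24 libraries of 150 bp, r was highest for Celf1 with Ptbp1 (0.83) and lowest for Rbfox2 with Celf2 (−0.65) and Mbnl2 with Ptbp1 (−0.63). For Rbfox2 these libraries include the 5 EC-KO libraries.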

How the data were processed

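The authors aligned reads with STAR 2.5.1b to mm9 and counted RefSeq genes with RSEM 1.2.15. They deposited expected counts and RPKM. Of 204 value columns 75 were used, and 129 were not mapped to a library or not needed. The 1 row with no gene name was left out. Expected counts were rounded, filtered with filterByExpr and fitted with edgeR 4.0.16 (R 4.3.3), scaling libraries by TMM and testing by quasi-likelihood, and p-values were adjusted over all genes tested by the Benjamini-Hochberg method (threshold 0.05). FPKM were computed from the counts and the deposited RPKM served as a check. Depth limited low genes most, since totals differed several-fold between libraries. Single libraries were compared by ratio with exact 95% intervals, which cover counting error only, for genes with 10 counts or more. Counts of Mbnl3 summed over libraries were given the same kind of interval. Python 3.11.15, pandas 2.3.3 and numpy 2.4.6 were used, and fits were tested on simulated data. DESeq2 1.42.0, other scalings, no filter, a replicate block and leaving out libraries were alternatives. Genes named are the 10 regulators, up to 2 called per direction of each list, and the 2 most alike by Pearson's r among genes with a mean of 5 FPKM or more. One gene that this rule names is not reported here. Members and lists were chosen with earlier results of these data known. The paper describes the untreated low and high flow pools as biological triplicates, each made of several carotid flushes. Pools hold several animals, so p-values measure the spread between libraries and not between animals.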

Additional observations from a re-analysis of the deposited data

Results flagged for a closer look

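In 3 genes the libraries of low flow all lay on one side of high flow in one setting and on the opposite side in another. The share of all genes that do so is not given here, so this number is not a result about these genes. Celf2 had a log2 fold-change of 1.04 with IgG and −0.24 with PBS liposomes, and the adjusted p of the difference was 0.81 in edgeR's quasi-likelihood test. Qk had 0.48 with IgG and −0.45 with PBS liposomes, with an adjusted p of the difference of 0.88. Ptbp3 had 0.38 in EC-KO animals at 7 d and −0.57 with IgG at 48 hr, and that difference was not tested. The separation of Ptbp3 in EC-KO animals holds on FPKM, and its groups overlapped on TMM-scaled FPKM.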

How the results depend on the processing

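Of 1590 values of single genes under alternatives, 1499 kept their side of the threshold, 54 lost and 36 gained a call, and 1 called value reversed, Celf1 in low flow against sham at −0.04 with library totals only. Of the 1499, 1379 were past the threshold in neither fit, and 71 of these had the other sign. In untreated low against high flow, 4 genes were called, 2 with library totals only, 2 without pools A and B, and 2 to 3 with 1 pool left out. Against sham, 3 were called, 0 without pools A and B and 1 to 2 with 1 pool left out. With IgG, 1 was called, 4 by DESeq2, 3 with library totals only, 2 with the replicate block, 2 with the 2 groups alone and 0 to 2 with 1 library left out. With PBS liposomes 5 were called, and 0 to 3 with 1 left out. With anti-GPIbα 1 was called, 2 by DESeq2, 4 with the 2 groups alone and 0 with any 1 left out. At 7 d, flow in controls called 0, but 1 by DESeq2, 1 with the replicate block, 2 without the low flow libraries numbered 1, 1 in the run of the high flow libraries alone and 0 to 2 with 1 left out. Flow in EC-KO called 0, but 1 with the replicate block, 1 without those numbered 1 and 1 in the run of the high flow libraries alone. EC-KO against control at low flow called 0, but 1 by DESeq2, 3 without those numbered 1, 1 in the run of the high flow libraries alone and 0 to 4 with 1 left out. In the cell line, of the ratios of each gene in each condition, 1 was past 2-fold and 6 were past 1.5-fold, from Mbnl3, Celf1, Celf2 and Mbnl1. The cause of these shifts was not tested. Calls of all genes shift with the setting as well. DESeq2 called 6122 genes with IgG and 3688 with anti-GPIbα, against 5422 and 2216 in edgeR. Shares of all genes are not given here for each alternative or for 1.5-fold. The counts of this paragraph thus show only how calls of the 10 genes move. With library totals only the median log2 of all genes was −0.69 against high flow and −0.71 against sham, and 25.3% and 19.2% of calls were higher, against 51% and 51.2%.

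Numbers shared between groups were not taken as pairs, since the sources used here do not say that same-numbered pools hold the same animals and not every correlation of their deviations was over 0.1. These correlations ran from −0.03 to 0.49 at 7 d, 9 of 13 over 0.1, and from −0.15 to 0.44 in the antibody and liposome groups, 16 of 42. The block moved the count of all genes called for flow in 7 d controls from 320 to 2940 and in EC-KO from 146 to 1317, and after clodronate from 16 to 64. Where 1 library was left in a group (a group of 2 that lost one, low flow without pools A and B, and low flow at 7 d in the run of the high flow libraries alone), the lone one was assumed to vary like the other groups. Fits without pools A and B, without libraries numbered 1, in the run of the high flow libraries alone and on trimmed reads were chosen after seeing the data. The other sequencing run of untreated and 7 d libraries was not run. With 2 or 3 libraries a group, differences near the standard error were not detectable.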
